A study of Mus musculus with 10 samples.

Results

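Genes of the 4 mouse Hox clusters were followed through 5 culture states of mouse embryonic stem (ES) cells. Members were all genes in the count files whose symbol is Hoxa, Hoxb, Hoxc or Hoxd followed by a paralogue number, and they made up 39 of 24015 genes listed. Of these, 38 are reported: 10 in HoxA, 10 in HoxB, 9 in HoxC and 9 in HoxD. The cells came from the inner cell mass of the blastocyst and carried a reporter of Wnt/β-catenin signalling in every group, the controls included. The labels name neither the strain nor how many clones were used. Cells grew on gelatin with leukaemia inhibitory factor (LIF) throughout and were split about every 48 h. The medium held either serum or 2i, which combines an inhibitor of GSK3 at 3 µM with the ERK pathway inhibitor PD at 1 µM. There were 5 groups of 2 RNA-seq libraries: serum, 5 to 6 passages of 2i (first 2i), more than 13 passages of 2i (long 2i), long 2i then 6 passages in serum (serum return), and 2i, 6 passages in serum and 4 to 5 passages in 2i again (second 2i). The earlier 2i culture of second 2i is labelled 13 passages rather than more than 13. Titles put replicate 1 of every group in a series LEM and replicate 2 in a series MLE, whose meaning is not given. The labels do not state whether the 2 libraries of a group are from different cultures. The p-values therefore describe scatter between libraries that could be purely technical.

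Hox genes encode homeodomain transcription factors that set position along the body axis of the embryo. Each gene has a paralogue number, and within a cluster the genes lie in the order in which they act: low numbers are switched on first and act towards the head, high numbers are switched on later and act towards the tail. In ES cells the clusters are a textbook example of chromatin that carries both the repressive Polycomb mark and an activating mark at its promoters. Retinoic acid switches on low-numbered genes, whereas Wnt signals and the Cdx factors act on central and high-numbered genes in the embryo.

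Levels are in CPM, a gene's count scaled to 1000000 counts of the library adjusted by its TMM factor, as mean ± SD over n = 2 libraries. Library totals ran from 16809070 to 27766338 counts on genes, so that 1 count was worth 0.0359 to 0.0591 CPM. Of the 38 Hox genes, 16 passed the filter on low counts and 22 did not. Passing came mostly through the 2i libraries: only Hoxb9 reached 10 counts in all 4 libraries from serum, so the 16 are not a neutral sample of the family. Replicate 2 of serum return stood apart in the ribosomal RNA gene Rn45s, at 15480 CPM against 2496 to 5445 CPM in the other 9 libraries. Without it, the Hox genes that passed were not wholly the same. Hoxa5 kept its direction but lost its call in serum return against long 2i (log2 -3.13). So did Hoxc5 in second 2i against serum return (log2 4.2), and genes newly past the filter passed instead. The 10 listed ES cell identity genes (Pou5f1, Sox2, Nanog and others) summed to 6560 to 7650 CPM in 8 libraries and to 5060 and 5140 CPM in long 2i, the group in which Hox genes were highest. In long 2i against serum 8 of the 10 were lower and 1 higher (33.9% and 35.1% of all genes), with Sox2 at 393 and 815 CPM. The part of these 10 genes in the Hox values was not tested.

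The family as a whole was scarce in serum and more abundant in 2i. In the 2 serum libraries the 38 genes held 69 and 53 counts, or 3.3 and 2.76 CPM. The libraries of first 2i held 30 and 32.7 CPM, those of long 2i 62.8 and 62 CPM, those of serum return 4.88 and 5.16 CPM, and those of second 2i 36.6 and 38.3 CPM. Every library from 2i thus lay above every library from serum in summed Hox level. In bulk RNA, a few cells with much Hox RNA and many cells with little cannot be told apart.

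**Figure D1:**
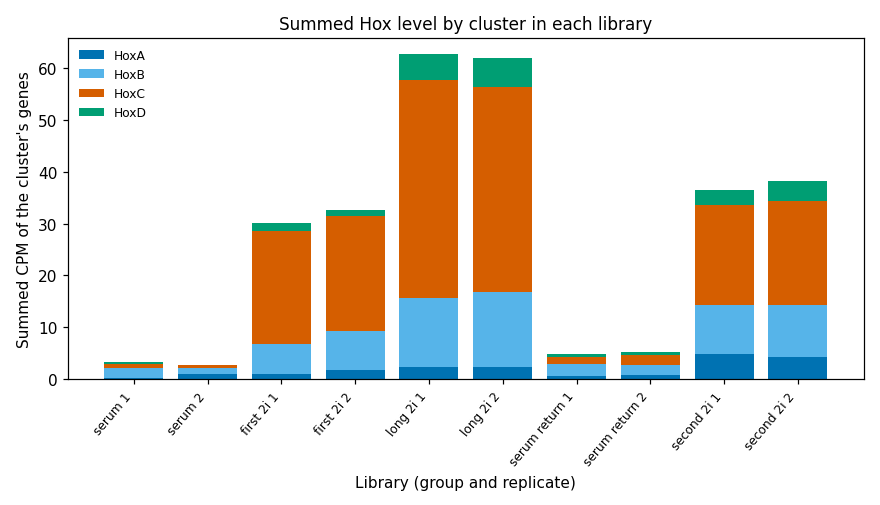
Summed CPM of the genes of each Hox cluster (stacked bars from 0) in each of the 10 libraries. Serum libraries sum to 2.76 to 5.16 CPM, with HoxB the largest share, and libraries from 2i to 30 to 62.8 CPM, with HoxC the largest share.

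The makeup differed between the media. HoxB supplied 55.1 and 47.2% of Hox counts in serum but 19.6 and 23.1% in first 2i. HoxC supplied 27.5 and 15.1% in serum, 72.1 and 67.9% in first 2i, 67.2 and 64.1% in long 2i and 52.9 and 52.6% in second 2i. HoxA supplied 3.12 and 5.06% in first 2i and 13.1 and 11% in second 2i. By paralogue number, the 16 posterior genes (9 to 13) summed to 1.87 and 1.25 CPM in serum, 22 and 23 CPM in first 2i and 44.1 and 43.5 CPM in long 2i. The sum of the 11 anterior genes (up to 4) was 1.24 and 1.2 CPM in serum, 7.06 and 7.89 CPM in first 2i, and 12.6 CPM in both libraries of long 2i. The 11 central genes (5 to 8) had the lowest sums, at 0.191 and 0.313 CPM in serum, 0.982 and 1.85 CPM in first 2i and 6.03 and 5.81 CPM in long 2i. These sums are descriptions and were not tested.

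Of the 16 tested Hox genes, 12 had all 6 libraries from 2i above all 4 libraries from serum, and none had them all below. Among all 14220 genes tested, 19.9% lay above in that way and 20.5% below. Most of the 16 passed the filter through 2i libraries only. That favoured this direction in advance, so the shares over all genes are not a like comparison. The 12 were Hoxa7, Hoxa9, Hoxb4, Hoxb9, Hoxc4, Hoxc5, Hoxc10, Hoxc12, Hoxc13, Hoxd8, Hoxd9 and Hoxd13. The 4 that overlapped were Hoxa3, Hoxa5, Hoxb13 and Hoxc6. The margin was wide for Hoxc13 (lowest 2i library 11 CPM, highest serum library 0.651 CPM) and thin for Hoxd13 (0.374 against 0.372 CPM), and for Hoxa9 and Hoxc5 the lowest 2i library held 1 count.

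**Figure D2:**
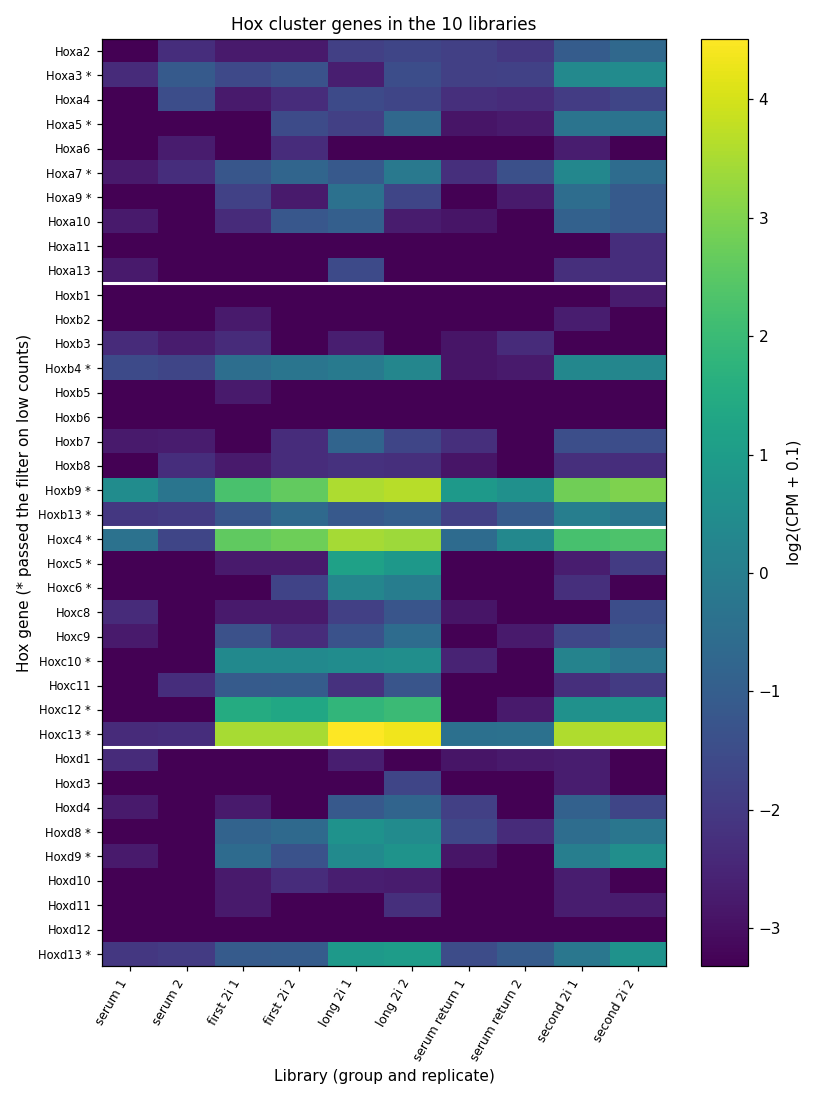
Level of each of the 38 Hox genes (rows, by cluster and paralogue number) in each library (columns), as log2(CPM + 0.1), with an asterisk for the 16 genes that passed the filter. Hoxc13, Hoxb9 and Hoxc4 are bright in the 6 libraries from 2i, and Hoxb6 and Hoxd12 are at 0 throughout.

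Each comparison was tested across all genes with edgeR's quasi-likelihood test and Benjamini-Hochberg adjustment. Most of the 16 Hox genes tested passed the filter through 2i libraries, so higher calls and medians in 2i against serum were favoured in advance. Among the 2i groups, Hoxc5 and Hoxc6 reached 10 counts only in long 2i, and Hoxa3 only in second 2i. Hoxa5, Hoxa9 and Hoxd13 reached 10 counts in long and second 2i but not in first 2i. No tested Hox gene did so in first 2i alone. Higher calls and medians of long or second 2i against first 2i were thus favoured in advance too. Calls for Hoxc5, Hoxc6 and Hoxa3 between long and second 2i were favoured likewise. In first 2i against serum, 9 Hox genes were higher and none was lower, while 35.1% of all genes tested were higher and 34.9% lower (70% changed). No Hox gene was lower at an unadjusted p under 0.05 or with DESeq2. The median log2 fold change of the 16 Hox genes was 2.35 with genes at 0 counts in serum taken at their bound (6 genes) and 1 gene at the floor left out, against 0.01 over all genes. In long 2i against first 2i, 8 were higher and none lower (30.4% and 30.8% of all genes, 61.2% changed), with a median of 1.06 against 0 over all genes. Again no Hox gene was lower at an unadjusted p under 0.05 or with DESeq2.

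In long 2i against serum, 14 were higher and none lower (35.1% and 33.9% of all genes, 68.9% changed), and the median with bounds was 3.66 against 0.01. Return to serum gave the opposite picture: 14 were lower than in long 2i and none higher (36% and 35.4% of all genes, 71.4% changed), with a median with bounds of -3.83 against -0.01. Neither an unadjusted p under 0.05 nor DESeq2 gave any Hox gene in the other direction in these comparisons. Serum return against the original serum left 2 higher, Hoxc13 and Hoxd8, and none lower, where 16.5% and 14.5% of all genes passed (31% changed). At an unadjusted p under 0.05, 3 were higher and 1, Hoxb4, was lower, and DESeq2, which gave an adjusted p for 4 Hox genes there and none for Hoxd8, called Hoxc13 higher and none lower. Hoxc13 alone also passed without replicate 1 of serum return or replicate 2 of serum. In second 2i against serum return, 15 were higher and none lower (32.3% and 33.3% of all genes, 65.6% changed), with a median with bounds of 2.72 against 0. Hoxc6 did not pass there, and none of the 16 was lower at an unadjusted p under 0.05 or with DESeq2.

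The cultures in 2i also differed among themselves. Against first 2i, second 2i had 5 Hox genes higher and 1 lower (18.1% and 19.6% of all genes), with a median of 0.84 against 0 over all genes (37.7% changed). This count was unstable: 1 passed with DESeq2 (of 13 Hox genes with an adjusted p), 1 without replicate 2 of second 2i and 2 without replicate 1 of first 2i. Against long 2i, second 2i had 1 higher, Hoxa3, and 7 lower (28.1% and 28.4% of all genes), with a median of -0.65 against -0.01 (56.4% changed). The comparisons share libraries, so their counts are not independent of each other.

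HoxC, whose high-numbered members pattern the tail end, hair and nails, held the family's largest changes. Hoxc13, the last gene of the cluster and a regulator of hair keratins, had 2 and 2 counts in serum (0.0957 and 0.104 CPM). It reached 11 and 11.1 CPM in first 2i, 22.7 and 20.4 CPM in long 2i, 0.646 and 0.651 CPM in serum return, then 11.8 and 12.1 CPM in second 2i. The groups did not overlap in any comparison with serum. It rose 104-fold in first 2i (edgeR adjusted p = 8.14e-15), on 4 counts in serum, and a further 1.95-fold in long 2i (adjusted p = 1.63e-07). On return to serum it fell 32.9-fold (adjusted p = 3.18e-16) but remained 6.18-fold above the original serum (log2 2.63, SE 0.51, adjusted p = 0.000667). In second 2i it rose 18.2-fold (adjusted p = 2.99e-14) to a level 1.08-fold that of first 2i (adjusted p = 0.479) and 1.81-fold below long 2i (adjusted p = 1.17e-06).

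Hoxc12, the neighbour of Hoxc13, had no counts in serum and 1 count in serum return. Its levels were 2.71 and 2.43 CPM in first 2i, 3.49 and 3.96 CPM in long 2i, and 1.47 and 1.53 CPM in second 2i. With a floor of 3 counts summed over both serum libraries (0.0748 CPM), it was at least 34.4-fold higher in first 2i and at least 49.9-fold higher in long 2i (edgeR adjusted p = 6.53e-09 and 8.15e-10). Second 2i lay 1.71-fold below first 2i (adjusted p = 0.0349). That call was lost without any single library of the pair (adjusted p = 0.15 and 0.0676 without replicates 1 and 2 of first 2i, 0.121 and 0.113 without those of second 2i) and with DESeq2 (0.184). Floors and intervals from counts cover counting error only.

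Hoxc10, known for hindlimb and lumbar identity, showed the same on-off pattern at a lower level. It had no counts in serum, 1.22 and 1.22 CPM in first 2i, 1.3 and 1.37 CPM in long 2i, 2 counts in all in serum return, then 1.04 and 0.738 CPM in second 2i. It was at least 16.3-fold higher in first 2i than in serum (edgeR adjusted p = 1.67e-06). Long 2i did not pass against first 2i (1.1-fold, adjusted p = 0.761).

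Hoxc4, at the other end of the cluster and known for neck and lymphocyte roles, had 0.67 and 0.208 CPM in serum. It stood at 5.94 and 6.72 CPM in first 2i, 10.9 and 10.1 CPM in long 2i, 0.574 and 1.16 CPM in serum return, then 4.58 and 4.9 CPM in second 2i. All 6 libraries from 2i lay above the 4 from serum, and the 2 serum groups overlapped. It rose 13.9-fold in first 2i (edgeR adjusted p = 1e-09), rose 1.66-fold more in long 2i (adjusted p = 0.00153), fell 12.5-fold on return (adjusted p = 4.27e-11) and rose 5.65-fold in second 2i (adjusted p = 1.2e-07). Serum return did not pass against serum (1.85-fold, adjusted p = 0.145), except without replicate 1 of serum (adjusted p = 0.0333).

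Hoxc5 and Hoxc6, central genes that act in the thorax and forelimb region, behaved differently from both ends of their cluster. Hoxc5 had 36 and 32 counts in long 2i (2.13 and 1.69 CPM) but 1 and 1 in first 2i, 1 and 3 in second 2i and none in serum or serum return. Hoxc6 had 19 and 17 counts in long 2i (1.12 and 0.897 CPM), 0 and 4 in first 2i, 2 and 0 in second 2i and none in serum or serum return. Only the long 2i libraries stand out for these neighbours. Hoxc5 was 39.7 times higher in long than in first 2i (95% counting interval 10.6 to 335, edgeR adjusted p = 1.28e-06), and Hoxc6 was 9.95-fold higher (adjusted p = 0.000983). In second 2i Hoxc5 was 16.8-fold lower than in long 2i (adjusted p = 6.66e-06) and Hoxc6 was 18.7 times lower (interval 4.82 to 161, adjusted p = 0.000678). DESeq2 did not call Hoxc6 in any of its comparisons (adjusted p = 0.171 to 0.529 where edgeR passed). Hoxc5 passed in second 2i against serum return on 4 counts against 0 (adjusted p = 0.038), and this was lost without any single library of serum return, any of long 2i or replicate 2 of second 2i (adjusted p = 0.0503 to 0.218), with DESeq2 (0.0596) and without the filter (0.0575).

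The genes between, Hoxc8, Hoxc9 and Hoxc11, did not pass the filter. Hoxc8 had 2, 2, 9, 1 and 5 counts over the 2 libraries of serum, first 2i, long 2i, serum return and second 2i. Hoxc9 had 1, 8, 16, 1 and 10, and Hoxc11 had 2, 16, 8, 0 and 5. HoxC was thus high at its ends and low between them: per kb of exon in first 2i, Hoxc13 stood at 4.49 CPM, Hoxc12 at 2.5, Hoxc11 at 0.189, Hoxc10 at 0.637, Hoxc9 at 0.0796, Hoxc8 at 0.0256, Hoxc6 at 0.0616, Hoxc5 at 0.0163 and Hoxc4 at 2.47 CPM. Hoxc5 and Hoxc10 share a 119-position stretch of identical 50-base windows in the annotated transcripts, where reads may not have been counted, whereas Hoxc4, Hoxc6, Hoxc11, Hoxc12 and Hoxc13 share none with other genes.

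**Figure D3:**
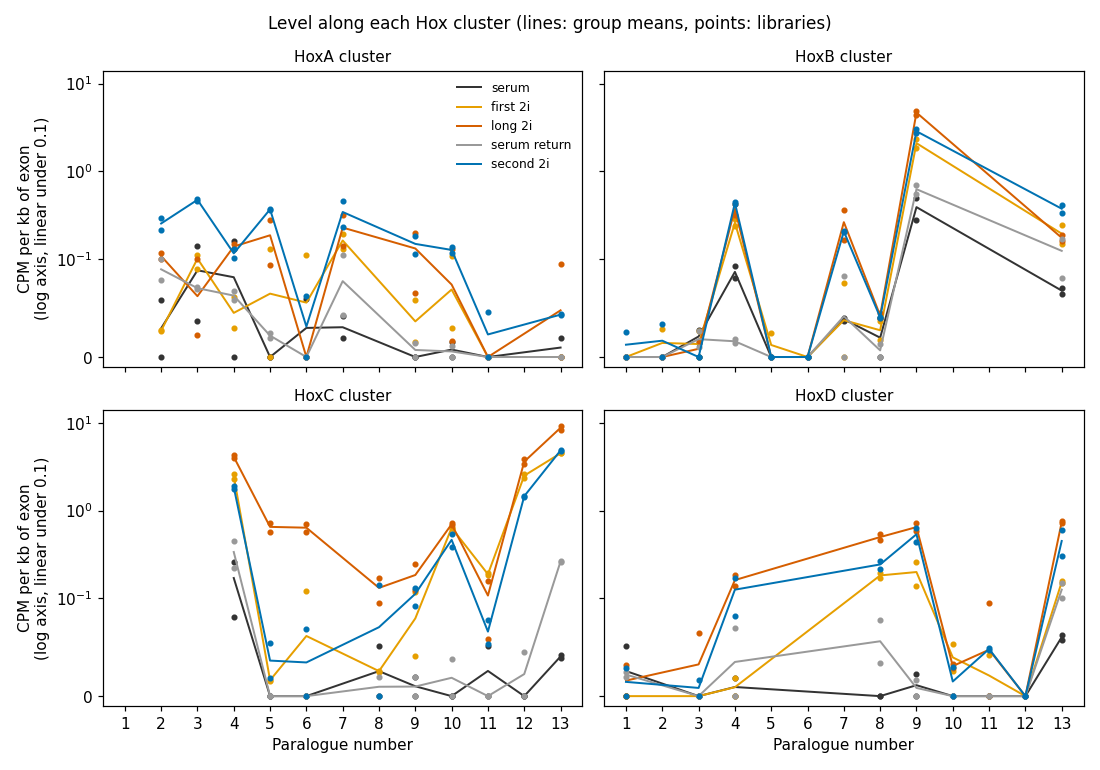
Level along each cluster by paralogue number, in CPM per kb of exon on a log axis that is linear under 0.1. Lines are group means and points are libraries. In HoxC the long 2i line lies highest at both ends and is the only one above 0.1 at Hoxc5 and Hoxc6 in its mean, and in HoxB Hoxb9 is highest in every group.

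In HoxB, Hoxb9 was the leading gene. This posterior gene, known from thoracic skeleton and mammary gland, had 1.29 and 0.729 CPM in serum and 4.72 and 6.09 CPM in first 2i. It reached 11.5 and 12.6 CPM in long 2i, fell to 1.79 and 1.44 CPM in serum return and stood at 6.97 and 7.8 CPM in second 2i. It was called in every step of the series: 5.26-fold higher in first 2i (edgeR adjusted p = 2.67e-08), 2.23-fold higher again in long 2i (adjusted p = 3.65e-06), 7.34-fold lower on return (adjusted p = 3.18e-11) and 4.5-fold higher in second 2i (adjusted p = 1e-08). Second 2i was 1.37-fold above first 2i (adjusted p = 0.0445), a call lost without replicate 1 of first 2i (0.323), replicate 1 (0.0633) or 2 (0.23) of second 2i, and with DESeq2 (0.166). Serum return, at 1.6-fold serum, did not pass (adjusted p = 0.0903), except without replicate 1 of serum (0.0385).

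Hoxb4, known for expanding blood stem cells, had 0.239 and 0.208 CPM in serum, 0.608 and 0.73 in first 2i, 0.827 and 1.11 in long 2i, 1 count in each library of serum return, and 1.14 and 1.11 CPM in second 2i. Its lowest values were in serum return, below the original serum. It was 4.25-fold higher in long 2i than in serum (edgeR adjusted p = 0.000846) and 27.8 times higher in second 2i than in serum return (95% counting interval 7.23 to 237, adjusted p = 2.08e-06). The 2.93-fold rise in first 2i (adjusted p = 0.0118) was lost without replicate 2 of serum (0.0636) or of first 2i (0.0653) and with DESeq2 (0.0799). Serum return against serum did not pass (5.54 times lower, interval 1.15 to 52.7, adjusted p = 0.0553).

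Hoxb13, a gene of the tail bud and prostate that lies apart from the rest of the cluster, had 0.143 and 0.156 CPM in serum and at most 0.926 CPM, in second 2i. It passed only in second 2i against serum return (3.09-fold, edgeR adjusted p = 0.00725), and not without replicate 1 of serum return (0.125) or of second 2i (0.065), nor with DESeq2 (0.092). The other 7 HoxB genes did not pass the filter: Hoxb6 had no count in any library, Hoxb1, Hoxb2 and Hoxb5 had 1, 2 and 1 counts in all, and Hoxb3, Hoxb8 and Hoxb7 had 9, 14 and 29. Of the 29 counts of Hoxb7, 12 were in long 2i and 10 in second 2i. Hoxb3 and Hoxb2 share 51.4 and 25.9% of their 50-base windows with another annotated transcript, so their low counts are uncertain.

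In the HoxB interval between Hoxb13 and Hoxb9, noncoding genes moved as well. Gm53, a long noncoding RNA gene, stood at 1.63 and 2.5 CPM in serum, 21.3 and 20.1 in first 2i, 21.2 and 20.2 in long 2i, 3.84 and 3.35 in serum return, then 14.1 and 16.5 in second 2i. It rose 10.1-fold in first 2i (edgeR adjusted p = 1.18e-13), did not pass between long and first 2i (1-fold, log2 SE 0.11, adjusted p = 0.99) and was 1.76-fold above serum after return (adjusted p = 0.00439). Mir196a-1, the gene of a microRNA known to target Hox messages, had 8 and 6 counts in serum, 79 and 64 in first 2i, 55 and 71 in long 2i, 18 and 17 in serum return, then 42 and 49 in second 2i. It rose 9.62-fold in first 2i (adjusted p = 1.44e-08). These reads come from RNA over the gene and do not measure the mature microRNA, and with the strand setting unknown they cannot be told apart from overlapping transcripts. The other 2 genes of the same microRNA family, Mir196a-2 in HoxC and Mir196b in HoxA, had no counts in any library. Mir196b shares 36 windows of 50 bases with Hoxa9 in the annotated transcripts, where reads may not have been counted. The lack of counts for Mir196b therefore does not show a lack of RNA. The mature sequences are shown because the 3 genes, of which 1 had counts, encode microRNAs with the same seed (bases 2 to 8, in capitals). They are RNA, 5′ to 3′, from RefSeq (GRCm38.p6), encoded at chr11:96265187-96265208 on the + strand (Mir196a-1), chr15:102973365-102973386 on the + strand (Mir196a-2) and chr6:52230129-52230150 on the - strand (Mir196b).
miR-196a-5p (Mir196a-1 and Mir196a-2): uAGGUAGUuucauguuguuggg
miR-196b-5p (Mir196b): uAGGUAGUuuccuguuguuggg

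In HoxD, 3 of the 9 genes were tested, and all were low next to the leading HoxC genes. Hoxd13, the digit gene at its posterior end, had 0.143 and 0.156 CPM in serum, 0.374 and 0.39 in first 2i, 1.77 and 1.9 in long 2i, 0.251 and 0.372 in serum return, then 0.763 and 1.48 in second 2i. Unlike Hoxc13 it did not pass in first 2i against serum (2.49-fold, edgeR adjusted p = 0.0902), and it rose 4.76-fold between first and long 2i (adjusted p = 8.76e-05). It was 3.64-fold higher in second 2i than in serum return (adjusted p = 0.00122, but 0.0652 without replicate 2 of second 2i). It was 2.91-fold higher in second than in first 2i (adjusted p = 0.0105), a call lost without that replicate (0.233), without replicate 1 of first 2i (0.0609) and with DESeq2 (0.0704).

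Hoxd8 and Hoxd9 are a central and a posterior gene of trunk and limb. Hoxd8 had no counts in serum, 0.468 and 0.536 CPM in first 2i, 1.48 and 1.27 in long 2i, 0.215 and 0.093 in serum return, then 0.599 and 0.738 in second 2i. It was at least 6.7-fold higher in first 2i than in serum (edgeR adjusted p = 0.000151) and 2.71-fold higher in long than in first 2i (adjusted p = 0.005, 0.0859 with DESeq2). Its 8 counts in serum return against 0 in serum passed (at least 2.17-fold, adjusted p = 0.0278), and the call was lost without replicate 1 (0.117) or 2 (0.115) of serum or replicate 1 of serum return (0.197). Hoxd9 had 1 and 0 counts in serum, 12 and 6 in first 2i, 21 and 29 in long 2i, 1 and 0 in serum return, then 17 and 26 in second 2i. It was 17.2 times higher in first 2i than in serum (95% counting interval 2.72 to 718, adjusted p = 0.00214) and 3.21-fold higher in long than in first 2i (adjusted p = 0.00281). Second 2i was 2.66-fold above first 2i (adjusted p = 0.0206), but not without replicate 2 of first 2i (0.17) or of second 2i (0.201), nor with DESeq2 (0.136).

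The 6 untested HoxD genes were Hoxd12 with no count, Hoxd3, Hoxd11, Hoxd1 and Hoxd10 with 5, 5, 6 and 6 counts in all, and Hoxd4 with 34. Hoxd4 had 1 count in serum, 1 in first 2i, 15 in long 2i, 5 in serum return and 12 in second 2i. Hoxd3 and Hoxd4 overlap each other and other annotated transcripts over 60.3 and 46.8% of their 50-base windows, so their counts are uncertain.

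Promoter sequence was at hand for 22 of the 38 genes, at 24 starts, and only the 250 bases before each start were read. The 3 shown belong to genes described here and overlap no annotated exon. They were picked after their values and matches were seen, to set a promoter with the TCF/LEF core beside CpG-rich ones without it. Capitals mark CTTTGA or its reverse complement TCAAAG, the core bound by the TCF/LEF partners of β-catenin, and TTTATG or CATAAA, a core bound by Cdx factors. Sequences are from RefSeq (GRCm38.p6), 5′ to 3′ on the gene's strand: Hoxd8 chr2:74704365-74704614 (+), Hoxd13 chr2:74667975-74668224 (+) and Hoxa5 chr6:52204588-52204837 (-).
Hoxd8: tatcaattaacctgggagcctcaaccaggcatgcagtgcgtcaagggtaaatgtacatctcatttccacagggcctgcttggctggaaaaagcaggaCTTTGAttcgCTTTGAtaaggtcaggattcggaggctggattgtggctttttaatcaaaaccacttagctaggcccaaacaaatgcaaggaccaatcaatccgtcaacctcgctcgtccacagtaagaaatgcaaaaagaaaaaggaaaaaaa
Hoxd13: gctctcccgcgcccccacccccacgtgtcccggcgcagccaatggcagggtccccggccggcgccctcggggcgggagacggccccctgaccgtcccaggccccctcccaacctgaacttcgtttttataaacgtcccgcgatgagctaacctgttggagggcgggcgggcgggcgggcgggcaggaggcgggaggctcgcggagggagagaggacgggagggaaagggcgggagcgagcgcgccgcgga
Hoxa5: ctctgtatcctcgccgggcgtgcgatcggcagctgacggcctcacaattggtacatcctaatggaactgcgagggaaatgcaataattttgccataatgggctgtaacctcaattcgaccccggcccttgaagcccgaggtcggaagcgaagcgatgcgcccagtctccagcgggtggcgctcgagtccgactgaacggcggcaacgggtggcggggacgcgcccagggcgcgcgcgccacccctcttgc
Hoxd8 held 2 TCF/LEF cores and 6 CpG sites, Hoxd13 none of the cores and 31 CpG sites, and Hoxa5 none and 28. On both strands, 3 of the 24 Hox promoters held the TCF/LEF core (12.5%), against 13.8% of 32851 promoters of that length, and 5 held the Cdx core (20.8%), against 10.8%. Besides Hoxd8, the TCF/LEF core lay before a start of Hoxa10, with 34 counts in all, and before Hoxd12, with no count. Neither gene passed the filter. The median was 12 CpG sites in Hox promoters and 6 in all promoters. Hoxc13, Hoxc12, Hoxc10 and Hoxb9 are not among the 24, and Hoxc4 alone stands for HoxC. All 250 bases of the Hoxc4 and Hoxa3 windows lie in annotated exons, and several other windows overlap exons in part. The shares and the median over the 24 include these windows. A match describes letters in these windows and is not a shown binding site.

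In HoxA the tested genes were highest in second 2i by group mean. Hoxa3, a gene of pharyngeal arches and thymus, had 0.0957 and 0.365 CPM in serum, 0.234 and 0.292 in first 2i, 0.0591 and 0.264 in long 2i, 0.179 and 0.186 in serum return, then 1.2 and 1.27 CPM in second 2i. The first 4 groups overlapped or lay side by side, and only second 2i was separate. It was 6.57-fold above serum return, 4.61-fold above first 2i and 7.16-fold above long 2i (edgeR adjusted p = 0.000143, 0.00204 and 0.000352). Hoxa3 shares 24.3% of its 50-base windows with other annotated transcripts of the cluster, so some of these counts may belong to them.

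Hoxa5, Hoxa7 and Hoxa9, genes of lung, trunk and blood stem cells, were low everywhere. Hoxa5 had no counts in serum, 0 and 5 in first 2i, 3 and 10 in long 2i, 1 and 1 in serum return, then 13 and 13 in second 2i. It was 17.2 times higher in second 2i than in serum return (95% counting interval 4.31 to 150, edgeR adjusted p = 0.000879). Hoxa9 had no counts in serum, 4 and 1 in first 2i, 11 and 4 in long 2i, 0 and 1 in serum return, then 11 and 7 in second 2i, and was 23.8 times higher in second 2i than in serum return (interval 3.76 to 992, adjusted p = 0.00204). Hoxa7 had 1 and 2 counts in serum, 7 and 10 in first 2i, 6 and 15 in long 2i, 3 and 6 in serum return, then 21 and 11 in second 2i. Second 2i held the most counts per library for Hoxa5, while the replicates of long 2i differed widely for all 3 genes. Hoxa9 was also at least 5.59-fold higher in long 2i than in serum (adjusted p = 0.00203). Some calls rested on single libraries. The rise of Hoxa5 in long 2i over serum (at least 4.85-fold, adjusted p = 0.00438) was lost without replicate 2 of long 2i (0.0648), that of Hoxa7 in first 2i over serum (0.0219) without replicate 1 of serum (0.132), replicate 2 of first 2i (0.109) and with DESeq2 (0.0637), and its rise in second 2i over serum return (4.57-fold, 0.00309) without replicate 1 of serum return (0.0673) or of second 2i (0.0833).

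A further 6 HoxA genes did not pass the filter. Hoxa2, Hoxa4 and Hoxa10 had 36, 28 and 34 counts in all, and Hoxa6, Hoxa11 and Hoxa13 had 4, 2 and 9. Hoxa2, a hindbrain gene, had 17 of its 36 counts in second 2i, and Hoxa10 had 15 of its 34 there. Hoxa11, Hoxa4 and Hoxa2 share 33, 13.3 and 12.7% of their 50-base windows with other annotated transcripts, so their counts are uncertain.

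The response to 2i was set beside that on second exposure by the difference of the 2 responses (second 2i against serum return, minus first 2i against serum), a test added after the data were seen. It passed for 2 Hox genes upwards and 3 downwards, where 18.4% and 21% of all genes passed (39.4% changed). The second response was smaller for Hoxc13 (log2 difference -2.52, SE 0.53, edgeR adjusted p = 0.00086), which stood at 0.649 ± 0.004 CPM in serum return against 0.0999 ± 0.0061 CPM in serum, and at 11 ± 0.011 and 11.9 ± 0.22 CPM in first and second 2i. This held under every alternative run. Hoxa3 (2.5, adjusted p = 0.0418) and Hoxc4 (-1.3, adjusted p = 0.0418) passed but were lost when single libraries were left out, for Hoxa3 most clearly replicate 2 of serum (0.527) and for Hoxc4 replicate 2 of serum return (0.312) or of serum (0.275). Hoxb4 and Hoxd8 passed too, each with a group of at most 3 counts.

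**Figure D4:**
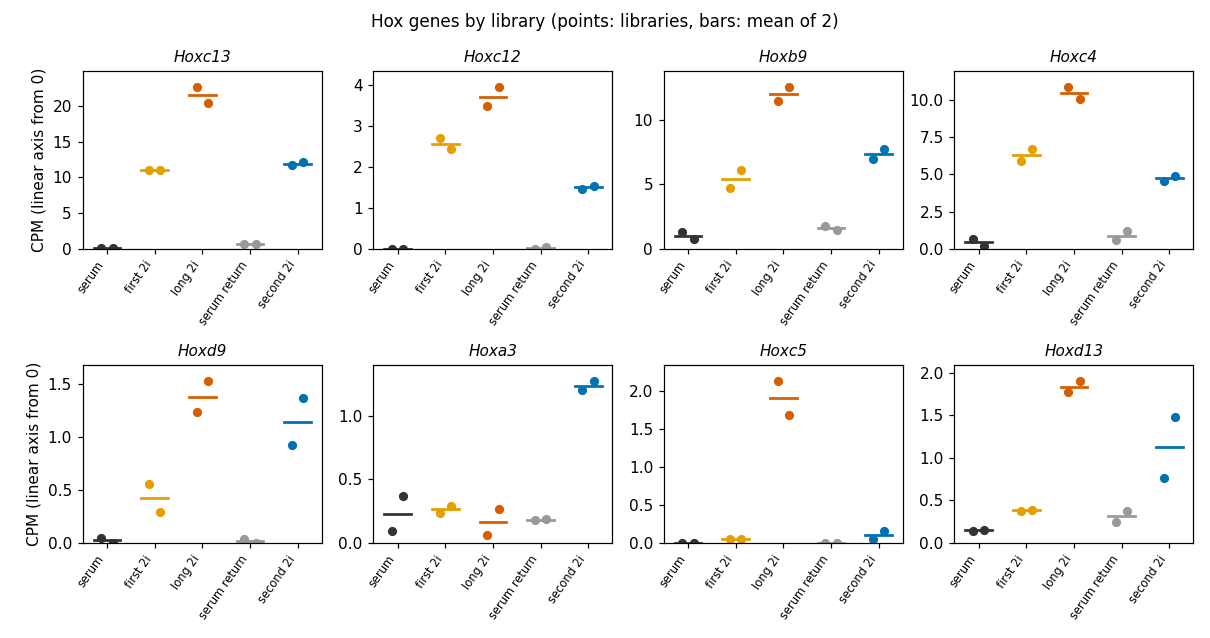
CPM of 8 Hox genes in each library (points) with the mean of the 2 libraries (bars), on linear axes from 0. Hoxc13, Hoxb9 and Hoxc4 are highest in long 2i, Hoxa3 in second 2i, and Hoxc5 reaches 2.13 and 1.69 CPM in long 2i alone.

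Per kb of exon, which allows genes to be compared with each other, Hoxb9 had 0.502 and 0.283 CPM per kb in serum and Hoxc4 0.261 and 0.0812. In long 2i these stood in the order Hoxc13 (9.22 and 8.3 CPM per kb), Hoxb9 (4.45 and 4.9), Hoxc4 (4.24 and 3.95) and Hoxc12 (3.38 and 3.84), where each pair of neighbours in the order was separate by library. In second 2i Hoxc13 (4.78 and 4.91) stood above Hoxb9 (2.71 and 3.03) and Hoxc4 (1.78 and 1.91). The lengths come from GENCODE vM21, since the annotation used for the counts is not given in the sources used here.

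Several factors that act on Hox genes in the embryo were also higher in 2i. Of the 7 tested members of a list of Cdx and other posterior regulators, 4 were higher and 2 lower in first 2i, 6 higher and 1 lower in long 2i against serum, and 5 higher and 1 lower in second 2i against serum return. Over all genes the shares higher and lower were 35.1% and 34.9%, 35.1% and 33.9%, and 32.3% and 33.3%. T (brachyury), a Wnt target of the primitive streak, went from 0.0957 and 0.104 CPM in serum to 1.45 and 1.17 in first 2i, 3.07 and 3.43 in long 2i, 0.108 and 0.093 in serum return, then 2.34 and 1.79 in second 2i. Cdx1, which binds Hox regulatory regions, had 1.77 and 2.24 CPM in serum, 5.71 and 6.28 in first 2i, 10.1 and 13.8 in long 2i, 4.99 and 6.37 in serum return, then 41.2 and 51.3 in second 2i. It was 2.95 log2 units higher in second than in first 2i (edgeR adjusted p = 2.15e-10), between which 5 Hox genes were higher and 1 lower (18.1% and 19.6% of all genes). Cdx1 also went from 12 ± 2.6 CPM in long 2i to 46.2 ± 7.2 CPM in second 2i. Between those groups 1 Hox gene was higher and 7 were lower (28.1% and 28.4% of all genes). Cdx2, which acts in the tail bud, had at most 0.093 CPM in any library of serum, first 2i or serum return, but 0.827 and 0.95 CPM in long 2i and 1.09 and 1.42 CPM in second 2i. Cdx4 did not pass the filter. The part of these factors in the Hox values was not tested.

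**Figure D5:**
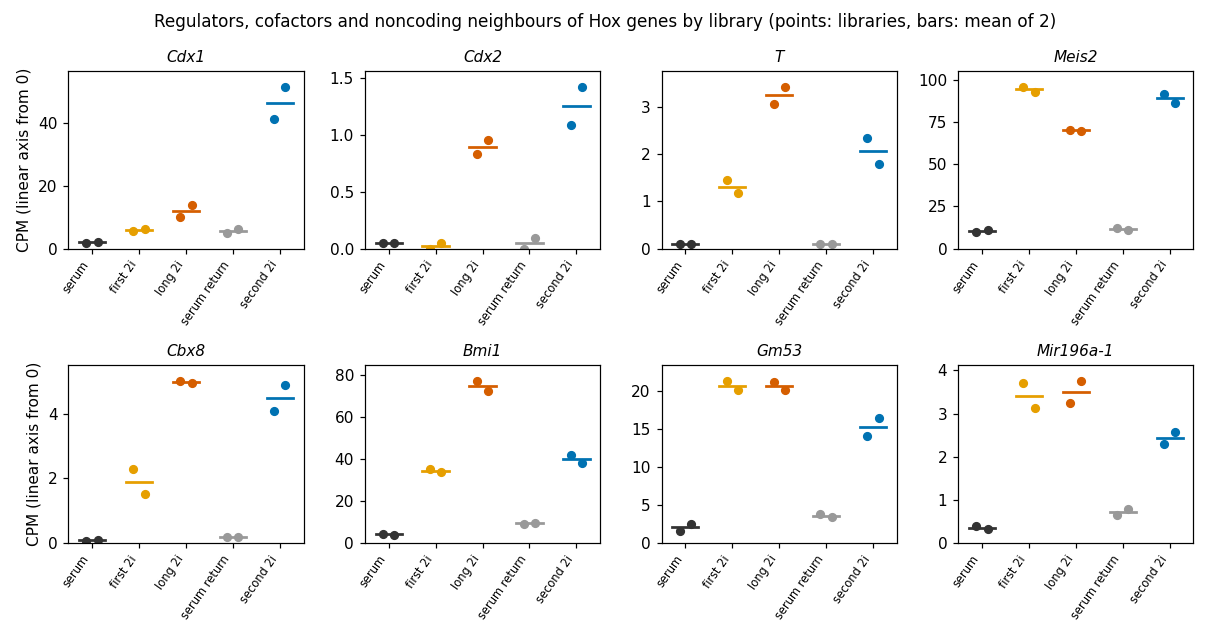
CPM of regulators and neighbours of Hox genes in each library (points) with the mean of 2 libraries (bars), on linear axes from 0. Cdx1 lies between 41.2 and 51.3 CPM in second 2i and at or under 13.8 CPM elsewhere, and Gm53 lies at or above 14.1 CPM in all 6 libraries from 2i.

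The TALE homeodomain proteins bind DNA together with Hox proteins. Of 9 tested members, 4 were higher and 3 lower in first 2i against serum, near the 35.1% and 34.9% of all genes. Meis2 rose 9.01-fold (10.5 ± 0.85 to 94.5 ± 2.1 CPM, edgeR adjusted p = 2.89e-18) and Meis1 rose from 0.198 ± 0.059 to 2.14 ± 0.34 CPM (adjusted p = 4.15e-07), whereas Pbx2 fell from 80.4 ± 2.8 to 31.2 ± 0.77 CPM (adjusted p = 2.11e-13). In the retinoic acid list 3 of 13 tested members were higher and 7 lower in first 2i, read against the same shares. Rarg, a receptor, fell from 242 ± 9.3 to 15.6 ± 1.9 CPM (adjusted p = 1.19e-19), and Aldh1a2, which makes retinoic acid, rose from 0.726 ± 0.079 to 6.09 ± 1.1 CPM (adjusted p = 4.74e-10). Cyp26a1, which degrades it and is a direct target, did not pass the filter.

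Polycomb genes, whose products hold Hox clusters silent, moved in both directions. Of 12 genes of Polycomb repressive complex 2, 7 were higher and 4 lower in first 2i. Ezh2, its enzyme, had 264 ± 7.1 CPM in serum and 270 ± 14 CPM in first 2i (log2 0.04, edgeR adjusted p = 0.545) but rose to 390 ± 16 CPM in long 2i (log2 0.53 against first 2i, adjusted p = 2.22e-08). Jarid2, which helps to recruit the complex, fell from 730 ± 12 to 300 ± 4.2 CPM (adjusted p = 5.76e-16). Of 19 genes of complex 1, 5 were higher and 9 lower. The higher ones included Bmi1, at 4.11 ± 0.21 and 34.5 ± 0.84 CPM (adjusted p = 5.56e-16), and Cbx8, at 0.076 ± 0.04 and 1.9 ± 0.55 CPM (adjusted p = 1.13e-07). Of 12 MLL and H3K27 demethylase genes, which oppose Polycomb, 5 were higher and 4 lower. These counts can be read against the 35.1% and 34.9% of all genes.

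Genes flanking the clusters did not share one direction. Of the 11 tested genes in a list of neighbours, 5 were higher and 2 lower in first 2i against serum (35.1% and 34.9% of all genes). Mtx2, beside HoxD, had group means of 43.9 to 47.2 CPM in all 5 groups, and Calcoco1, next to Hoxc13, fell from 80.9 ± 0.099 CPM in serum to 37.7 ± 0.29 CPM in long 2i (edgeR adjusted p = 2.56e-12), where Hoxc13 was highest. Calcoco1 had 73.8 ± 2.6 CPM in serum return and 72.1 ± 0.19 CPM in second 2i (adjusted p = 0.646), between which Hoxc13 rose. Calcoco2, beyond Hoxb13, rose from 20 ± 1.9 to 60.7 ± 5.8 CPM in first 2i (adjusted p = 1.18e-12). Evx1, beside Hoxa13, had at most 0.625 CPM, and Evx2, beside Hoxd13, had no counts. Inside HoxC the noncoding gene Hotair, between Hoxc12 and Hoxc11, had 18 counts in all: 3 and 8 in first 2i, 2 and 2 in long 2i, 2 and 1 in second 2i and none in serum or serum return.

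Markers of other cell types were followed because differentiated cells of the trunk also express Hox genes. The summed level of 13 mesoderm and limb markers was 74.8 to 146 CPM in the 4 serum libraries and 4.54 to 10.2 CPM in the 6 from 2i. The 10 endoderm and gut markers summed to 36.4 to 46.6 and 4.38 to 10.9 CPM, the 11 fibroblast and feeder markers to 22.7 to 43 and 8.6 to 18.1 CPM, and 12 neural markers to 61.2 to 75.9 and 16 to 48 CPM. Each of these 4 sums was lower in every library from 2i than in every library from serum, opposite to the summed Hox level. Single genes led these sums: Tcf15 held 92.3 of 96.9 CPM of the mesoderm sum and Sox7 34 of 36.4 CPM of the endoderm sum in replicate 1 of serum, with Thy1 and Tubb3 leading the fibroblast and neural sums. Other members were higher in long 2i than in serum, among them Kdr (0.398 and 5.05 CPM in serum and long 2i), Gata4 (1.28 and 4.67), Twist1 (0.248 and 1.12) and Pax6 (0.621 and 2.55). In first 2i against serum, 35.1% of all genes tested were higher and 34.9% lower. Of the tested markers, 1 of 6 mesoderm markers was higher and 2 lower, and 2 of 5 endoderm markers higher and 2 lower. For fibroblast markers, 1 of 6 was higher and 2 lower, and for neural markers none of 4 was higher and 3 lower. The part of these markers in the Hox values was not tested. Twist2, Pax3 and Krt20 had no counts in any library. The fibroblast markers Dcn and Col3a1 had counts in every LEM library and in no MLE library, so the replicates differ in these markers. Within 2i, the neural sum was highest in long 2i, at 42.8 and 48 CPM, the group in which HoxC was highest too.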

How the data were processed

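RNA-seq was done on total RNA in 10 libraries. Per the submitters' processing notes, the authors used CASAVA 1.8.2, TopHat2 2.0.4, HTSeq 0.5.4p5, DESeq2 and the mm9 build. The annotation, the strand setting and whether reads were paired: not given in the sources used here. The deposited files hold whole-number counts per gene, 16809070 to 27766338 on genes per library. The 5 summary categories of records on no gene were left out of library sizes. Gene counts were 51.16 to 54.81% of all records, and records that did not align uniquely were 33.41 to 36.51%, so near-identical genes are undercounted.

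Counts were tested here with edgeR 4.0.16 (R 4.3.3; TMM scaling, filterByExpr with a minimum count of 10 and total of 15, robust quasi-likelihood fit over all 5 groups, 5 residual degrees of freedom). That left 14220 of 24015 genes, over which p-values were Benjamini-Hochberg adjusted, with a threshold of 0.05. On simulated counts for first 2i against serum (13865 genes tested), 95 of 100 2-fold and 86 of 100 1.5-fold changes were recovered with 6 false calls. These changes were put only into genes with more counts than most tested Hox genes have, at a fixed spread. The recovery therefore does not apply to most Hox genes. Against a group with no counts, folds are bounds from a floor of 3 counts over the group, and against 1 to 3 counts they are ratios with exact 95% counting intervals. Replicates differed by more than sampling noise in every group. Another Hox gene and a neural marker gene stayed in the fit but are not reported here, and all counts, sums and medians of Hox genes cover the other 38. From each other list up to 4 genes with the largest change among those that passed at a mean of 1 CPM or more could be named, with Cdx1, Cdx2, T, Cyp26a1, Ezh2, Evx1 and Evx2 always. Other list genes named here were chosen after their values were seen. The members and lists were chosen with earlier results of these data known. Alternatives were RLE scaling, no filter, DESeq2 1.42.0, the compared groups alone, a block for the title series, and the omission of each library in turn. Promoter and microRNA sequences are from RefSeq (GRCm38.p6), and exon lengths and shared 50-base windows from GENCODE vM21 (all 38 genes matched).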

Additional observations from a re-analysis of the deposited data

Results flagged for a closer look

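The second response to 2i (second 2i against serum return) differed from the first (first 2i against serum) in a test of the difference itself for 3 Hox genes with more than 3 counts in each group. The log2 difference was 2.5 for Hoxa3 (edgeR adjusted p = 0.0418), -2.52 for Hoxc13 (0.00086) and -1.3 for Hoxc4 (0.0418). Of all genes tested, 39.4% passed this test. Hoxa3 and Hoxc4 each lost their call without any of several single libraries, and Hoxa3 also without the filter (edgeR adjusted p = 0.0555). Without replicate 2 of serum the difference was 1.32 for Hoxa3 and -0.73 for Hoxc4. Without replicate 2 of serum return it was -0.77 for Hoxc4.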

How the results depend on the processing

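No Hox gene reversed direction in a called comparison under any alternative that gave it an adjusted p. Over single genes with an adjusted p, 1985 values kept their side of the threshold, 89 lost their call and 16 gained one. Genes that an alternative did not test are not in this tally. With only the groups compared, 6 Hox genes were tested for first 2i against serum and all passed (9 in the main fit). With DESeq2, which gave an adjusted p for 4, 13 and 8 Hox genes there (16 in edgeR), 1 Hox gene differed between serum return and serum (2 in edgeR), 1 between second and first 2i (6) and 2 in the test of second against first response (5). Without the filter 3 passed in that test. With only the groups compared, 1 of 3 that passed the filter differed between serum return and serum, and Hoxd8 was not tested. Leaving out 1 library at a time gave 1 to 7 genes for second against first 2i, 1 to 3 for serum return against serum and 2 to 4 for the second against first response. The title series (LEM or MLE) was also fitted as a replicate block. Same-series libraries deviated together in every pair of groups, though weakly (r = 0.099 to 0.168 over 10 pairs, 9 above 0.1). Dcn and Col3a1, fibroblast markers, had 0.473 to 2.48 and 0.236 to 0.717 CPM in the LEM libraries and no counts in the MLE libraries. Aldh1a1, of the retinoic acid list, had 0.414 to 2.04 CPM in the LEM libraries and at most 0.0527 CPM in the MLE libraries. The libraries of a group thus differed partly by series, whose meaning is not given, and the main fit leaves this out. The block gave 11 Hox genes for first 2i against serum, 9 for long against first 2i and 8 for second against first 2i, and over all genes 6172 instead of 4407 between serum return and serum. It gained Hoxa5 (adjusted p = 0.0456) and Hoxa9 (0.0436) in first 2i against serum, Hoxa9 (0.048) in long against first 2i, and Hoxa9 (0.0305) and Hoxc4 (0.0437) in second against first 2i. Counts under 10 per library limit most Hox genes, above all in serum.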
